A study of Homo sapiens with 6 samples.

Results

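Interferon-stimulated and RNA-sensing genes are a group of 41 genes listed by name, of 60612 genes in each deposited table. They were found by mapping the Ensembl identifiers of the tables to GENCODE symbols, and all 41 were found. The group holds 8 sensors of double-stranded RNA (RIGI, IFIH1, DHX58, EIF2AK2, OAS1, OAS2, OAS3 and OASL), the RNA editing enzyme ADAR, and 32 effectors and regulators. RNA was sequenced from HCT116, an established human colorectal carcinoma line, after infection with lentivirus, either a negative control (LV-NC, 3 libraries) or one that overexpressed SNORA28, a small nucleolar RNA (LV-SNORA28, 3 libraries), to ask what that RNA changes in these cells. Both groups carried a lentivirus of the same supplier, and no uninfected cells were analysed here. The paper gives a single collection time after infection for both groups, so no course over time can be read. The libraries were poly(A)-selected, and the promoter that drove SNORA28 is not given in the sources used here. No source used here says that the 3 libraries of a group came from separate cultures, so each p-value measures only the spread between these libraries.

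Cells detect double-stranded RNA in the cytosol with helicases such as RIG-I and MDA5, which signal through the mitochondrial protein MAVS to kinases that activate the transcription factors IRF3 and IRF7. The interferons made in this way bind receptors on the same or neighbouring cells, and a complex that holds STAT2 and IRF9 then binds interferon-stimulated response elements (ISREs) in the promoters of a large set of genes. Many of these genes encode the sensors themselves, so that the pathway amplifies itself, and others encode proteins that block the replication of viruses.

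The promoters of 5 members are shown for the pattern that the gene group turns on: the paired sensors RIGI and IFIH1, the neighbouring genes IFIT1 and IFIT3, and ISG15, a widely used marker of the interferon response. Each line is the 250 bases before a RefSeq start site on GRCh38.p14, 5′ to 3′ on the strand of the gene, and capitals mark matches to the ISRE letters GAAANNGAAA on either strand. RIGI lies at chr9:32526197-32526446 on the minus strand, IFIH1 at chr2:162318685-162318934 on the minus strand, IFIT1 at chr10:89392373-89392622 on the plus strand, IFIT3 (the first of its start sites) at chr10:89327747-89327996 on the plus strand, and ISG15 at chr1:1013247-1013496 on the plus strand.
RIGI: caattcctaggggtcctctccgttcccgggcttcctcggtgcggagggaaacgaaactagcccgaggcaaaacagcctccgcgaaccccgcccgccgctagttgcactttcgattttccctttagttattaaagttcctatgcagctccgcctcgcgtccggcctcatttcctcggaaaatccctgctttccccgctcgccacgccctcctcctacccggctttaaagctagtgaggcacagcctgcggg
IFIH1: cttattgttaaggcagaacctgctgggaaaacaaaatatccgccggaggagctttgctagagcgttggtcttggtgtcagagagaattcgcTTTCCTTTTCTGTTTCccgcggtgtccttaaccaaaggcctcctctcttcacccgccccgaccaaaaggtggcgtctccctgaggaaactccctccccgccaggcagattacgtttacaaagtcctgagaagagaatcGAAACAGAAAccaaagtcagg
IFIT1: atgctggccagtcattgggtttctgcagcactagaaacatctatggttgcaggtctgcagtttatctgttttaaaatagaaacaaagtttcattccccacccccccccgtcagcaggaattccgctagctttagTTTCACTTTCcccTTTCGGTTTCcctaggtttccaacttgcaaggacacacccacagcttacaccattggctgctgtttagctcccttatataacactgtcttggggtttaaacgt
IFIT3: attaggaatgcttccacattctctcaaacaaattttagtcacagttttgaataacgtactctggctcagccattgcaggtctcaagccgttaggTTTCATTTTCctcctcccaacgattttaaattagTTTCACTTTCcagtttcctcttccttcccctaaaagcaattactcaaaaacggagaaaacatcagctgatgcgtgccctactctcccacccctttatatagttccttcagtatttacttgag
ISG15: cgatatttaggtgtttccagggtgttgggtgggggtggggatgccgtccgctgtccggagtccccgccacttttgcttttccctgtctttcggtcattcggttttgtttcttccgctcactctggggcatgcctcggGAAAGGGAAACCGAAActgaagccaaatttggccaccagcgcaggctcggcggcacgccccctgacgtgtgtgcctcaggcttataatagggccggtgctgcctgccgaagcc

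In windows of 300 bases, 250 before and 50 after a start site, 32 of the 41 members had a RefSeq entry. DHX58, OAS2, OASL, IRF3, IRF7, USP18, IFIT2, MX2 and IFITM2 are named only. The ISRE letters occurred in at least 1 window of 23 of the 32 members (71.9%), against 4.38% of all 27305 gene symbols. The letters TTCNNNGAA, a simple form of the gamma-activated site, which read the same on both strands, occurred in 9 of the 32 members (28.1%), against 9.38% of symbols. Matches to both motifs overlapped in 4 members. A match describes letters in a window, not a bound site. The window of RIGI held neither motif in these letters. Among members without an ISRE match, the windows of RIGI and OAS1 do hold gaaacgaaa, a closer spacing that the letters GAAANNGAAA do not count. The window of TRIM25 holds it on the other strand, and that of IFI35 holds gaaatgaaa, with the same spacing. Some members with a match hold gaaacgaaa as well, such as OAS3 and PARP14.

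SNORA28 (chr14:103337849-103337974) served as the check of the labels. It was listed at 0.92, 0 and 0.64 FPKM (fragments per kilobase of transcript, relative to the mapped total) in LV-NC 1 to 3 and at 15.01, 13.66 and 15.2 FPKM in LV-SNORA28 1 to 3. The groups were fully separate, and the log2 fold change was 3.41 (SE 0.23, limma adjusted p = 0.00228). Of 8 epithelial markers, 6 had a mean of at least 1 FPKM, while CEACAM5 was listed at 0 and CEACAM6 at no more than 0.01 FPKM. Markers of endothelial cells were at or under 0.1 FPKM in all libraries, and of the fibroblast markers COL1A1 alone was above 1 FPKM. The summed level of 6 leukocyte markers ran from 1.13 to 2.4 FPKM in LV-NC and from 2.52 to 4.16 FPKM in LV-SNORA28. Nearly all of that sum was CD68, which many cell types express, and PTPRC, the general leukocyte marker, was at 0 in LV-SNORA28 and at no more than 0.08 FPKM in LV-NC. Mitochondrially encoded genes took 42.7% to 47.72% of all FPKM in LV-NC and 35.88% to 38.26% in LV-SNORA28. Since FPKM is relative to all mapped fragments, each result on a single gene was also computed on the sum of nuclear genes.

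Most members were at a low level in these cells in both groups. The filter used for the test, an average of 1 FPKM or more across libraries, was reached by 28 of the 41 members. Of the 13 below it, MX2 and IFI44L were listed at 0 in every library, and MX1, OAS1, OAS2 and SAMD9L did not exceed 0.1 FPKM in any. FPKM is scaled to transcript length, so levels may be set side by side. The highest mean level over the 6 libraries was that of IFITM3 with 111 FPKM, followed by ISG15 with 48.9 FPKM, IFITM2 with 28.7 FPKM, ADAR with 26.3 FPKM and TRIM25 with 19.2 FPKM. The libraries of IFITM3 and ISG15 did not overlap with those of the next gene in this order, whereas IFITM2 and ADAR overlapped, as did ADAR and TRIM25. Among the sensors, EIF2AK2 with 7.34 FPKM and OAS3 with 7.16 FPKM were the most abundant and overlapped with each other.

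**Figure D1:**
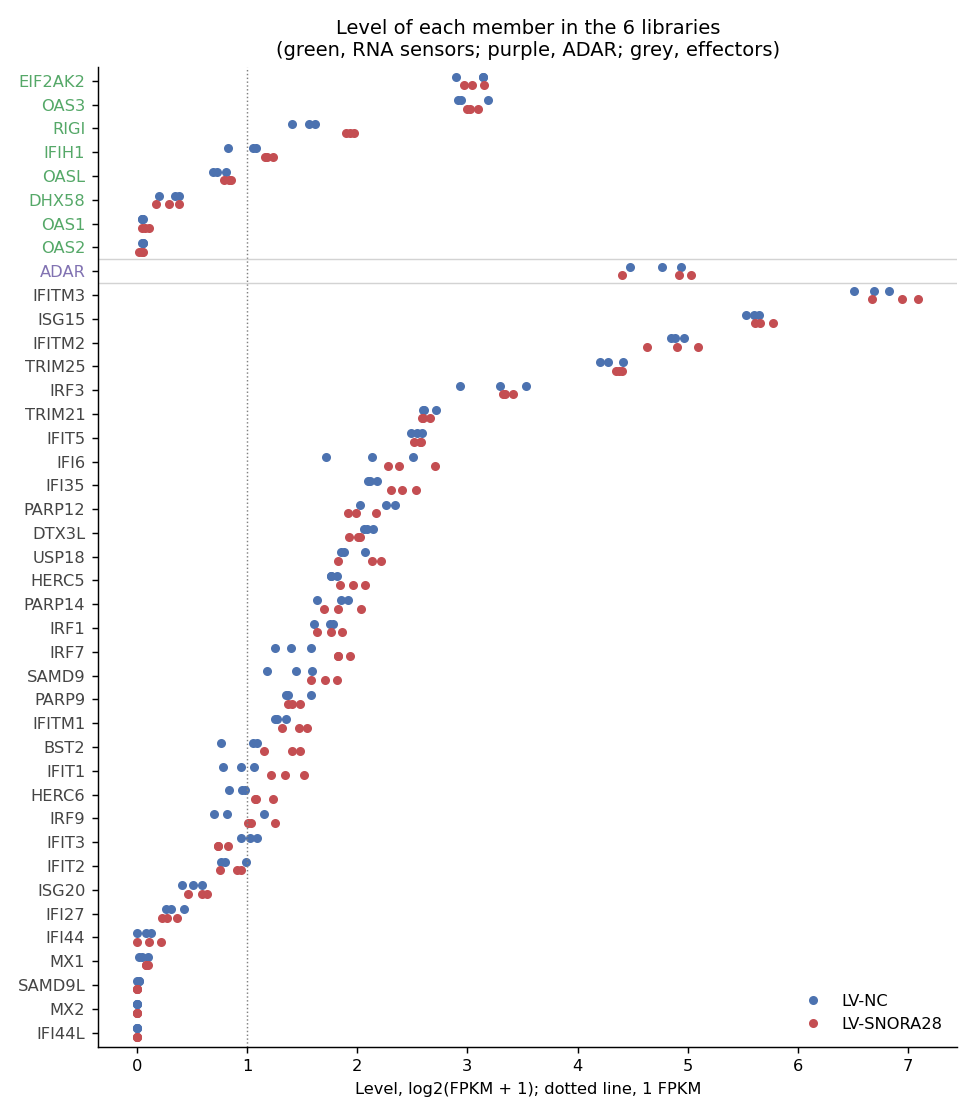
Level of each of the 41 members on the log2(FPKM + 1) scale (horizontal axis), with 1 point for each of the 3 LV-NC (blue) and 3 LV-SNORA28 (red) libraries and genes ordered by mean level within sensors, ADAR and effectors. The points of RIGI and IRF7 form separate clusters by group, those of EIF2AK2, OAS3 and ADAR lie among each other, and 6 members sit at or next to 0.

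Between LV-SNORA28 and LV-NC, 2 of the 28 members tested rose and none fell at a limma adjusted p under 0.05. The 2 were the sensor RIGI and the transcription factor IRF7. They make up 7.14% of the members tested, against 6.81% of all 12076 genes tested that rose and 2.10% that fell. At an unadjusted p under 0.05 the limma fit gave 5 members higher (RIGI, IRF7, IFIT1, IFI35 and BST2) and 0 lower, while 28.0% of all genes passed that threshold in either direction. At the threshold of the study (unadjusted p under 0.05 and a fold change above 1.5, here on the log2(FPKM + 1) scale) 0 members were called, against 3.79% of all genes. With a pseudocount of 0.1 in place of 1, BST2, IFIT1 and IRF7 passed that threshold, against 6.38% of all genes. The 13 members under the filter gave 11 values in a fit without a filter, of which none passed (lowest limma adjusted p 0.294) and 1, IFIT3, had an unadjusted p under 0.05. The share of members called was close to the share of all genes called.

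The groups of 3 libraries did not overlap in 8 of the 28 members in the upward direction (28.6%), against 27.0% of all genes tested, and in 1 member, DTX3L, in the downward direction (3.57%), against 8.16% of all genes. Values above 0 on the log2 scale were found for 22 of the 28 members (78.6%) and for 66.7% of all genes. The filter used the mean of both groups. IFIT1, BST2, HERC6, IFIH1 and IRF9 averaged under 1 FPKM in LV-NC (0.913, 0.967, 0.897, 0.983 and 0.867 FPKM). They passed it only through their higher LV-SNORA28 libraries. IFIT3, with 1.03 FPKM in LV-NC and 0.697 FPKM in LV-SNORA28, fell below it. The counts of members thus rest partly on this selection, which all genes went through. The median log2 fold change was 0.115 over the members and 0.085 over all genes tested, a difference smaller than the spread of the members' median between libraries of a group (0.041, pooled SD). The sensors (4 tested, median 0.12, range -0.01 to 0.40) and the effectors (23 tested, median 0.122, range -0.18 to 0.45) are given side by side without a test. With 1 library left out the effectors' median ran from 0.102 to 0.142, and that of the sensors was 0.056 without LV-NC 2 and 0.18 without LV-NC 3. At a mean of at least 5 FPKM the medians were 0.012 for sensors and 0.084 for effectors. In bulk RNA, fewer cells with a transcript and less of it per cell cannot be told apart.

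**Figure D2:**
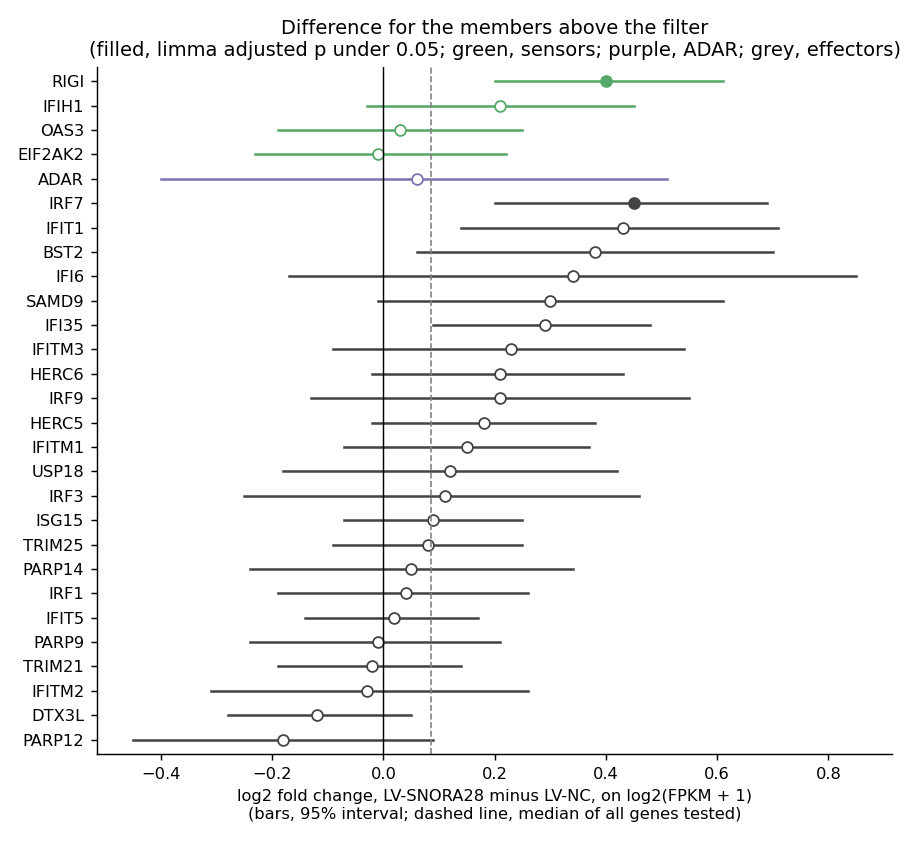
Log2 fold change of LV-SNORA28 over LV-NC for the 28 members tested (points), with 95% intervals (bars) and the median of all genes tested, 0.085 (dashed line). The filled points are RIGI and IRF7, and the intervals of EIF2AK2, OAS3 and ADAR include 0.

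RIGI (ENSG00000107201, chr9:32455302-32526208, minus strand) encodes RIG-I, the helicase that recognises double-stranded RNA with a triphosphate at its end. It measured 2.07, 1.96 and 1.65 FPKM after LV-NC and 2.72, 2.82 and 2.93 FPKM after LV-SNORA28. Every LV-SNORA28 library was above every LV-NC library. Mean levels were 1.89 ± 0.218 FPKM (SD, n = 3) for LV-NC and 2.82 ± 0.105 FPKM (SD, n = 3) for LV-SNORA28, a ratio of 1.49, and the log2 fold change was 0.40 (SE 0.09, 95% interval 0.20 to 0.61, limma adjusted p = 0.0372). The call was close to the threshold: the limma adjusted p was 0.0515 after scaling to nuclear genes, 0.0694 after quantile normalization and 0.0997 without a filter. It lay between 0.0526 and 0.125 when any 1 of the 6 libraries was left out.

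IFIH1 encodes MDA5, the helicase that binds long double-stranded RNA. It gave 1.11, 0.77 and 1.07 FPKM with LV-NC and 1.27, 1.36 and 1.24 FPKM with LV-SNORA28. No library of one group lay within the other, but the log2 fold change of 0.21 (SE 0.10, 95% interval -0.03 to 0.45) did not pass (limma adjusted p = 0.223). DHX58 encodes LGP2, the relative of both helicases that lacks their signalling domains. It had 0.30, 0.27 and 0.15 FPKM across the LV-NC libraries against 0.22, 0.30 and 0.13 FPKM across those of LV-SNORA28, so the groups overlapped at a level under the filter. By the letters GAAANNGAAA, the promoter window of IFIH1 held 3 ISRE matches and that of RIGI none.

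The other sensors gave no call. EIF2AK2 encodes PKR, the kinase that halts translation when it binds double-stranded RNA. It measured 7.84, 6.44 and 7.83 FPKM after LV-NC and 6.84, 7.24 and 7.88 FPKM after LV-SNORA28. The ranges overlapped almost fully, and the log2 fold change was -0.01 (SE 0.09, 95% interval -0.23 to 0.22, limma adjusted p = 0.975). OAS3, an oligoadenylate synthetase whose product activates RNase L, gave 6.66, 6.52 and 8.08 FPKM with LV-NC and 7.13, 6.98 and 7.57 FPKM with LV-SNORA28. Here too the ranges overlapped, with a log2 fold change of 0.03 (SE 0.09, 95% interval -0.19 to 0.25, limma adjusted p = 0.865). The intervals of EIF2AK2 and OAS3 exclude a log2 change as large as the 0.40 of RIGI.

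OAS1, OAS3 and OAS2 lie next to each other on chromosome 12 within 105.9 kb, yet only OAS3 was above the filter. OAS1 had 0.03, 0.03 and 0.04 FPKM across the LV-NC libraries against 0.03, 0.05 and 0.08 FPKM across those of LV-SNORA28. OAS2 measured 0.04, 0.04 and 0.03 FPKM after LV-NC and 0.04, 0.01 and 0.03 FPKM after LV-SNORA28. Both were nearly absent from these libraries in either group. OASL, a relative without synthetase activity that enhances RIG-I signalling, gave 0.61, 0.65 and 0.75 FPKM with LV-NC and 0.73, 0.78 and 0.81 FPKM with LV-SNORA28. The groups overlapped, and in the fit without a filter the log2 fold change was 0.09 (limma adjusted p = 0.681).

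ADAR converts adenosine to inosine in double-stranded RNA, which keeps a cell's own RNA from being sensed. It had 21.22, 26.18 and 29.69 FPKM across the LV-NC libraries against 29.24, 20.12 and 31.62 FPKM across those of LV-SNORA28. The lowest value was LV-SNORA28 2 and the highest LV-SNORA28 3, so the spread within a group was larger than the difference between groups. The log2 fold change was 0.06 (SE 0.19, 95% interval -0.40 to 0.51, limma adjusted p = 0.877). The interval includes the 0.40 of RIGI on the log2(FPKM + 1) scale, which shrinks RIGI more than ADAR. With a pseudocount of 0.1 the log2 fold changes were 0.56 for RIGI and 0.06 for ADAR.

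Of the 4 interferon regulatory factors, IRF7 alone passed the test. IRF7 (ENSG00000185507, chr11:612553-615983, minus strand) is needed for the transcription of most interferon alpha genes. It measured 1.64, 1.99 and 1.39 FPKM after LV-NC and 2.55, 2.54 and 2.81 FPKM after LV-SNORA28. Every LV-SNORA28 library was above every LV-NC library, with means of 1.67 ± 0.301 FPKM (SD, n = 3) and 2.63 ± 0.153 FPKM (SD, n = 3) for LV-NC and LV-SNORA28, a ratio of 1.57. The log2 fold change was 0.45 (SE 0.10, 95% interval 0.20 to 0.69, limma adjusted p = 0.0470). The limma adjusted p was 0.0591 after scaling to nuclear genes, 0.112 after quantile normalization and 0.126 without a filter. It lay between 0.0471 and 0.148 when 1 library was left out, and was under 0.05 only without LV-NC 2.

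IRF3, the factor activated first by RNA sensing, gave 10.57, 8.83 and 6.63 FPKM with LV-NC and 9.15, 9.01 and 9.69 FPKM with LV-SNORA28. The groups overlapped, and the log2 fold change was 0.11 (limma adjusted p = 0.680). On the opposite strand BCL2L12 covers 19.3% of the exon bases of IRF3, and whether fragments were counted by strand is not given in the sources used here. IRF1 and IRF9, the DNA-binding partner of STAT2, had log2 fold changes of 0.04 and 0.21 and did not pass either (limma adjusted p = 0.830 and 0.388). Another gene on the same strand shares 23.9% of the exon bases of IRF9, so fragments may have been split between them. That gene had a mean of 4.86 FPKM, against 1.01 FPKM for IRF9, so the level of IRF9 is uncertain.

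ISG15, its protease USP18, its ligase HERC5, the related HERC6 and the ubiquitin ligases TRIM21 and TRIM25 gave 6 members, all above the filter and none called. ISG15, a ubiquitin-like protein joined to other proteins after interferon, had 47.61, 45.33 and 49.13 FPKM across the LV-NC libraries against 53.83, 48.04 and 49.56 FPKM across those of LV-SNORA28. The groups overlapped, with a log2 fold change of 0.09 (SE 0.07, 95% interval -0.07 to 0.25, limma adjusted p = 0.429). TRIM25, the ligase known for its part in RIG-I activation, measured 20.29, 17.38 and 18.43 FPKM after LV-NC and 19.71, 19.4 and 20.17 FPKM after LV-SNORA28. TRIM21, a cytosolic antibody receptor, gave 5.09, 5.05 and 5.57 FPKM with LV-NC and 5.31, 5.03 and 5.06 FPKM with LV-SNORA28. Neither moved beyond the spread between libraries (log2 fold changes 0.08 and -0.02, limma adjusted p = 0.521 and 0.855). The other 3, USP18, HERC5 and HERC6, had log2 fold changes of 0.12 to 0.21 with no call. HERC5 and HERC6, which lie next to each other on chromosome 4, did not overlap between groups, and are named for that after their values were seen.

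The 4 IFIT genes, whose proteins bind foreign or uncapped RNA, lie in a row on chromosome 10 (chr10:89283694-89421605, in the order IFIT2, IFIT3, IFIT1, IFIT5), and none of them passed the test. IFIT5 was named by its level, and IFIT1 and IFIT3 were chosen for description after their values were seen. IFIT1 had 1.09, 0.93 and 0.72 FPKM across the LV-NC libraries against 1.54, 1.32 and 1.86 FPKM across those of LV-SNORA28. The groups were fully separate, and the ratio of means was 1.72, with a log2 fold change of 0.43 (SE 0.12, 95% interval 0.14 to 0.71, unadjusted p = 0.00988, limma adjusted p = 0.0746). IFIT3, which stabilises the IFIT1 protein, measured 1.03, 1.13 and 0.92 FPKM after LV-NC and 0.66, 0.66 and 0.77 FPKM after LV-SNORA28. Its groups did not overlap in the opposite direction, with a ratio of 0.679 and a log2 fold change of -0.26 (SE 0.09, limma adjusted p = 0.294 in the fit without a filter). The difference between the genes was not tested. IFIT5 gave 5.01, 4.6 and 4.84 FPKM with LV-NC and 4.72, 4.98 and 4.94 FPKM with LV-SNORA28, with overlapping groups and a log2 fold change of 0.02 (SE 0.07, limma adjusted p = 0.900). IFIT2 was between 0.69 and 0.98 FPKM in all libraries and overlapped between groups. IFIT1 and IFIT3 each held 2 ISRE matches in the stretches printed above.

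**Figure D3:**
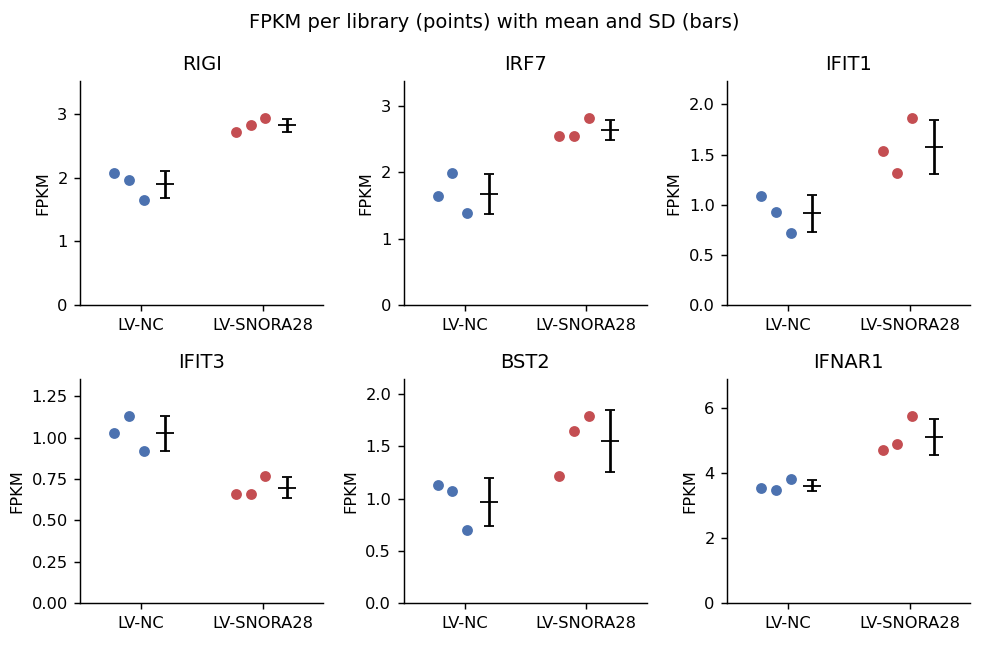
FPKM of RIGI, IRF7, IFIT1, IFIT3, BST2 and IFNAR1 (vertical axes, from 0) in each LV-NC (blue) and LV-SNORA28 (red) library, with the mean and SD of 3 libraries beside the points. RIGI, IRF7 and IFNAR1 had a call, and IFIT1, IFIT3 and BST2 were chosen after their values were seen. The groups do not overlap in any of the 6 panels, and IFIT3 is the only panel with LV-SNORA28 below LV-NC. Over all genes tested, 27.0% did not overlap in the upward direction and 8.16% in the downward direction.

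PARP9, PARP12, PARP14 and DTX3L, whose proteins add ADP-ribose or ubiquitin to other proteins, were all above the filter, and none of the 4 was called. PARP12 had 4.07, 3.08 and 3.79 FPKM across the LV-NC libraries against 3.51, 2.98 and 2.77 FPKM across those of LV-SNORA28. The groups overlapped, with a log2 fold change of -0.18 (SE 0.11, limma adjusted p = 0.343). DTX3L, described here after its values were seen, measured 3.25, 3.18 and 3.42 FPKM after LV-NC and 3.01, 2.79 and 3.06 FPKM after LV-SNORA28. It was the member tested whose LV-SNORA28 libraries all lay below the LV-NC libraries, by a log2 fold change of -0.12 (SE 0.07, limma adjusted p = 0.333). PARP9 and PARP14 had values of -0.01 and 0.05, and each changed sign when either of 2 libraries was left out, PARP14 also under quantile normalization.

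Restriction factors act on the virus itself, and 5 of the 9 were above the filter with no call. IFITM3, a membrane protein that blocks the fusion of viruses in endosomes, gave 90.15, 112.84 and 102.6 FPKM with LV-NC and 135.72, 122.33 and 100.98 FPKM with LV-SNORA28. The groups overlapped through LV-SNORA28 3, and the log2 fold change was 0.23 (SE 0.13, 95% interval -0.09 to 0.54, limma adjusted p = 0.308). IFITM2 had 28.48, 30.31 and 27.88 FPKM across the LV-NC libraries against 33.08, 28.88 and 23.77 FPKM across those of LV-SNORA28, with a log2 fold change of -0.03 (SE 0.12, limma adjusted p = 0.908). IFITM1, IFITM2 and IFITM3 are close copies within 25.8 kb on chromosome 11, so fragments may have been split between them and their single values are uncertain. BST2, or tetherin, which holds budding particles at the cell surface, was described after its values were seen. It measured 1.13, 1.07 and 0.70 FPKM after LV-NC and 1.22, 1.65 and 1.79 FPKM after LV-SNORA28, without overlap, and its log2 fold change of 0.38 (SE 0.13, unadjusted p = 0.0275) did not pass after adjustment (limma adjusted p = 0.127). SAMD9 and IFITM1 had log2 fold changes of 0.30 and 0.15 with no call. The restriction factors with the best known response to interferon, MX1 and MX2, were between 0.01 and 0.07 FPKM and at 0.

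Of the 5 IFI genes, IFI6 and IFI35 were above the filter, and neither was called. IFI6, a small membrane protein of the endoplasmic reticulum and mitochondria, gave 2.28, 4.67 and 3.38 FPKM with LV-NC and 4.21, 3.86 and 5.51 FPKM with LV-SNORA28. The spread within groups exceeded the difference, with a log2 fold change of 0.34 (SE 0.21, limma adjusted p = 0.349). IFI35 had 3.53, 3.32 and 3.28 FPKM across the LV-NC libraries against 4.78, 3.96 and 4.31 FPKM across those of LV-SNORA28. Its groups did not overlap, and the log2 fold change of 0.29 (SE 0.08, unadjusted p = 0.0107) did not pass after adjustment (limma adjusted p = 0.0776). IFI27 and IFI44 did not exceed 0.34 FPKM in any library, and IFI44L was listed at 0.

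Of the 2 members called, RIGI had no ISRE match in its window and IRF7 had no window. Of the 17 tested members with an ISRE match, 0 were called by limma and 12 had a value above 0 (median log2 fold change 0.089). Among these 17, BST2 and IFIT1 had an unadjusted p under 0.05. Of the 7 tested members with a window and no match, 1 was called, RIGI, and all 7 had a value above 0 (median 0.207). RIGI, IFI35 and TRIM25, which are among these 7, hold the closer spacing described above, so the split depends on the letters used. Of the 4 tested members with no window, 1 was called, IRF7 (median 0.115). Over all genes tested 6.81% were called higher, 66.7% had a value above 0 and the median was 0.085. The difference between members with and without a match was not tested.

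The other genes of the pathway were read from a list of 120, of which 65 were above the filter. Of these 4 rose (6.15%) and 1 fell (1.54%), shares close to those of all genes tested. The fold changes of 3 of the genes that rose and of the gene that fell are given here. IFNAR1, a chain of the receptor for interferon alpha and beta, gave 3.54, 3.48 and 3.81 FPKM with LV-NC and 4.70, 4.90 and 5.75 FPKM with LV-SNORA28 (log2 fold change 0.40, SE 0.09, limma adjusted p = 0.0391). It rose without overlap, whereas IFNAR2, the other chain, had 2.99, 2.80 and 2.54 FPKM across the LV-NC libraries against 2.37, 3.06 and 1.68 FPKM across those of LV-SNORA28 and overlapped (log2 fold change -0.18, SE 0.16, limma adjusted p = 0.49). HLA-E, a ligand of receptors on natural killer cells, measured 45.99, 43.29 and 41.37 FPKM after LV-NC and 52, 54.28 and 52.08 FPKM after LV-SNORA28 and rose by 0.27 on the log2 scale (limma adjusted p = 0.0431).

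APOL2, an apolipoprotein L gene, gave 2.60, 2.31 and 2.44 FPKM with LV-NC and 3.36, 3.29 and 3.45 FPKM with LV-SNORA28, a rise of 0.34 on the log2 scale (limma adjusted p = 0.0364). LGALS3BP, a secreted glycoprotein that binds galectins, had 99.58, 102.52 and 89.79 FPKM across the LV-NC libraries against 79.39, 76.43 and 79.51 FPKM across those of LV-SNORA28. It fell by 0.31 on the log2 scale (limma adjusted p = 0.0412), in all 3 libraries below the LV-NC range. STAT2, a signal transducer of interferon receptors, measured 6.6, 4.75 and 4.55 FPKM after LV-NC and 6.15, 4.86 and 6.05 FPKM after LV-SNORA28 and gave no call (log2 fold change 0.09, SE 0.15, limma adjusted p = 0.715). MAVS, the adaptor of both RIG-I and MDA5, gave 20.34, 15.76 and 17.78 FPKM with LV-NC and 19.11, 17.27 and 18.86 FPKM with LV-SNORA28, again with no call (log2 fold change 0.04, SE 0.10, limma adjusted p = 0.832). The list was compiled from general knowledge, but with earlier results of these data known. Of the 65 genes tested, 42 had a value above 0 (64.6%), against 66.7% of all genes.

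The interferon ligands were close to undetected in both groups. Of 21 ligand genes none reached the filter, 12 were listed at 0 in every library, IFNB1 and IFNG among them, and 19 did not exceed 0.1 FPKM. IFNE was the highest, with 0.19, 0.12 and 0.06 FPKM in LV-NC and 0.26, 0.14 and 0.23 FPKM in LV-SNORA28. All 6 receptor genes were above the filter. CXCL10, a chemokine strongly induced by interferon, was listed at 0 in every library.

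RIGI and IRF7 kept an adjusted p under 0.05 without a mean-variance trend and with a pseudocount of 0.1. Both lost it under quantile normalization, scaling to nuclear genes, and a fit without a filter, and both lie under a filter of 5 FPKM. The calls of IFNAR1, HLA-E and APOL2 were lost under the same 3 alternatives (that of HLA-E also without a trend), and that of LGALS3BP without a trend and without a filter. With 1 library left out in turn, RIGI, IFNAR1 and APOL2 had no call in any such fit. IRF7, HLA-E and LGALS3BP each had a call in only 1 of these fits. Under quantile normalization the calls over all genes were 451 higher and 375 lower in place of 822 and 254, and after scaling to nuclear genes 615 and 264.

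**Figure D4:**
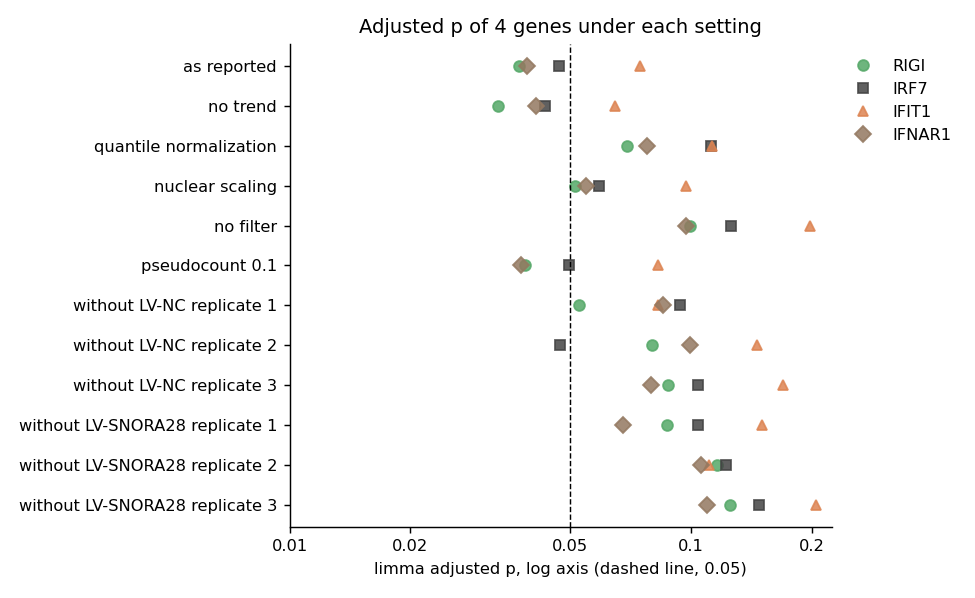
Limma adjusted p (horizontal log axis, dashed line at 0.05) of RIGI, IRF7, IFIT1 and IFNAR1 under the processing as reported, 5 alternatives and each of the 6 libraries left out. RIGI, IRF7 and IFNAR1 lie right of the line in most rows, and IFIT1 lies right of it in all rows.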

How the data were processed

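Poly(A)-selected RNA from HCT116 cells was sequenced as paired ends in 6 libraries prepared with strand-marked cDNA, and sample titles gave the groups LV-NC and LV-SNORA28. FPKM values were deposited by the authors, 1 table per library with an Ensembl identifier and a value for 60612 genes. The submitters' processing notes name cutadapt 1.9, HISAT2 2.2.1, StringTie 2.1.6 and the build hg38. The annotation release, the strand setting and any filter are not given in the sources used here. The depth of the libraries is unknown, so no counting interval was attached to a value.

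Symbols for 60401 identifiers came from GENCODE release 44, and promoter windows from RefSeq on GRCh38.p14. Values were transformed to log2(FPKM + 1), which understates the change of low genes, and genes averaging 1 FPKM or more (12076) were fitted with limma 3.58.1 in R 4.3.3 (lmFit, eBayes with a trend). Two-sided p-values were corrected over all 12076 genes after Benjamini and Hochberg. The study's threshold was read from the same fit. Members under the filter were read from a fit of the 32761 genes above 0 in any library. An exact permutation test of 3 against 3 libraries cannot go below p = 0.1 and was not used. The code was tested on simulated data, and any pair of libraries had different values for 26342 genes or more. In the simulated data 200 of 12076 genes were changed. The fit called 15% of them at a log2 change of 0.5 and 82% at a change of 1. In the data 1076 genes were called, so the adjustment differed and these shares are no estimate for the members. A member without a call may still have changed.

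The members, the list of 120 pathway genes and the marker lists were chosen with earlier results of these data known. Values per library are given for the sensors, ADAR, each other member or pathway gene with an adjusted p under 0.05, the 10 effectors with the highest mean FPKM, and IFNAR1, IFNAR2, STAT2 and MAVS. The result of 1 pathway gene is not reported here. Other members are given by counts and ranges, or named as chosen after their values were seen. The alternatives comprised no trend, quantile normalization, scaling to the FPKM sum of nuclear genes, no filter, a mean of at least 5 FPKM, a pseudocount of 0.1, a fold change above 2, the replicate number as a block, and each library left out in turn.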

Additional observations from a re-analysis of the deposited data

How the results depend on the processing

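The 2 members called (RIGI, a sensor, and IRF7, an effector) kept their call without a mean-variance trend and with a pseudocount of 0.1. The number called was 0 for members, sensors and effectors alike under quantile normalization, scaling to nuclear genes, no filter, a mean of at least 5 FPKM (under which neither gene was tested) and the replicate block. With 1 library left out it ran from 0 to 1 for members and for effectors (IRF7, without LV-NC 2) and was 0 for sensors. Of pathway genes 5 were called, and 3 without a trend, 2 under quantile normalization, 2 after nuclear scaling, 1 without a filter, 1 under the replicate block and 0 to 4 with 1 library left out. Over all genes 1076 were called, 397 without a filter, 510 under the replicate block and 279 (without LV-SNORA28 2) to 628 with 1 library left out. The members' median log2 fold change of 0.115 was 0.035 under quantile normalization, 0.056 without a filter and 0.056 at a mean of at least 5 FPKM, beside medians over all genes of -0.001, 0.019 and 0.082 in place of 0.085. The sensors' median of 0.12 was 0.03, 0.028 and 0.012 under the same settings and 0.204 with a pseudocount of 0.1 (all genes 0.106). The effectors' median of 0.122 was 0.04 under quantile normalization and 0.069 without a filter. At the threshold of the study 0 members passed, and 3 with a pseudocount of 0.1. The medians under quantile normalization and without a filter thus moved together with that of all genes. The cause of the other shifts was not tested. Single genes changed sign only where they had no call: under quantile normalization OAS3 (-0.067), ADAR (-0.022), IRF1 (-0.048), TRIM25 (-0.007), IFIT5 (-0.078), PARP14 (-0.04), STAT2 (-0.002) and MAVS (-0.049), and after nuclear scaling IFIT5 (-0.007). With 1 library left out the range crossed 0 for EIF2AK2 (-0.089 to 0.036), OAS3 (-0.02 to 0.116), ADAR (-0.07 to 0.247), IRF1 (-0.018 to 0.096), IRF3 (-0.053 to 0.247), TRIM21 (-0.045 to 0.015), IFIT5 (-0.011 to 0.04), PARP9 (-0.052 to 0.06), PARP14 (-0.041 to 0.127), IFITM2 (-0.135 to 0.095) and MAVS (-0.046 to 0.129). It kept its sign but was wide for IFNAR2 (-0.328 to -0.028), IFI6 (0.138 to 0.533) and STAT2 (0.011 to 0.237). Deviations of same-numbered libraries correlated at -0.0441, 0.0914 and 0.00983, so the numbers were not taken to pair the samples. With no depth known, the precision of values near 1 FPKM rests on 3 libraries a group.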
